A study of Mus musculus with 18 samples.

Results

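The clathrin endocytosis and early endosome genes are a list of 43 genes that build the clathrin coat, bend and cut the membrane, form caveolae or run the early and recycling endosomes. A transcript cluster, the set of array probes summarised as 1 gene, was taken for each listed symbol, and where a gene had several clusters the brightest on average was used. All 43 were found among the 22909 gene symbols of the array, which held 28856 transcript clusters.

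The study profiled mesangial cells, podocytes and endothelial cells of the mouse glomerulus, the filtering unit of the kidney, from *Cd2ap* mutant mice and from controls at 5 weeks of age. *Cd2ap* encodes an adaptor protein of the podocyte filtration slit, and its loss gives a mouse model of focal segmental glomerulosclerosis. Mutants were CD2AP-/- by the labels and carried the tm1Shaw allele, a germline mutation present in every cell. Podocyte and endothelial controls were wild type. The mesangial controls were titled "control" and labelled wild type but headed "+:-" in the deposited table, so they may be heterozygous. Glomeruli were sieved and GFP positive cells sorted by flow cytometry, with a different reporter transgene for each cell type, among them *Meis1-GFP* for mesangial cells and *Tie2-GFP* for endothelial cells, so cell type, reporter and sort cannot be told apart. Each of the 6 groups had 3 arrays, called A, B and C here, and the submitters describe them as biological triplicates. In such sorted bulk samples, fewer cells of a type and less RNA per cell cannot be told apart.

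In clathrin-mediated endocytosis, the AP2 adaptor complex and accessory proteins gather cargo receptors at the plasma membrane and recruit clathrin, BAR domain proteins bend the membrane, dynamin cuts the neck, and synaptojanin helps to strip the coat. The vesicle then fuses with the early endosome, where Rab5 and its tethers act, and cargo returns to the surface through Rab4 and Rab11 compartments. Caveolae are a separate, clathrin-independent type of pit built on caveolins and abundant in many endothelia. Podocytes take up slit diaphragm proteins by endocytosis, and mice that lack dynamins in podocytes develop proteinuria.

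The values are RMA signals on a linear scale, in arbitrary units that have meaning only within a gene, and 100 was the minimum signal that the study's methods set. Of the 43 members, 39 reached 100 in at least 1 array and 28 reached it in all 18. *Dnm1*, *Sh3gl2*, *Sh3gl3* and *Pacsin3* stayed below 100 in all 18 arrays, so their transcripts had no level that could be compared. *Eps15*, *Picalm* and *Arf6* were at 500 or more in all 18 arrays. The lowest signal of any member was 35.5 (*Sh3gl3*) and the highest 1773 (*Picalm*). Between 32 and 36 members reached 100 in any 1 array. The heatmap of all members sets them side by side by role.

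**Figure D1:**
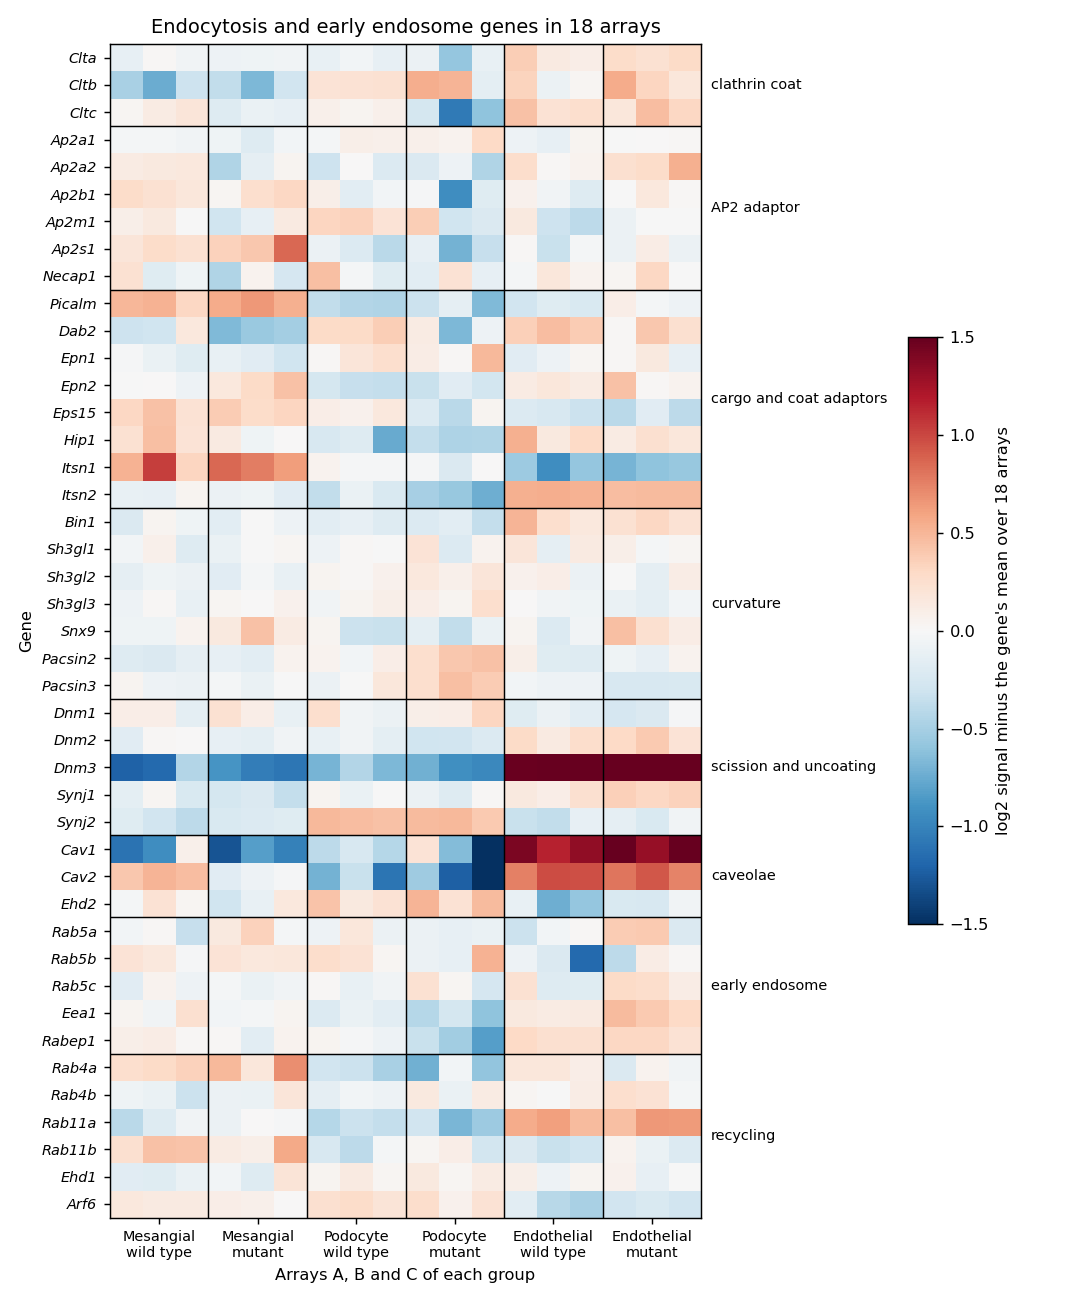
Each row is 1 of the 43 genes, ordered by role, and each column 1 of the 18 arrays; colour is the log2 signal minus the gene's mean over all arrays, cut off at 1.5 in either direction. *Cav1* and *Cav2* are high in endothelial arrays, and *Dnm3* is above 100 in endothelial arrays only. Mutant podocyte array C is the lowest of all arrays for *Cav1* and *Cav2*.

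The labels were checked first on *Cd2ap* itself. Its signal was 922, 1037 and 1123 in control mesangial arrays and 819, 870 and 797 in mutant ones (log2 difference -0.31, adjusted p = 0.151, limma with Benjamini-Hochberg adjustment, as for all adjusted p-values here). Podocytes gave 2108, 1670 and 1546 against 1512, 1503 and 1478 (-0.23, adjusted p = 0.504), and endothelial cells 840, 859 and 757 against 891, 966 and 920 (0.18, adjusted p = 0.336). The arrays of the genotypes did not overlap, mutants being lower in mesangial cells and podocytes and higher in endothelial cells, but no difference passed; where the probes lie relative to the altered exons is not given in the sources used here, and every genotype direction below rests on the labels alone. As sums, the marker lists were highest in the arrays of their labelled cell type. Summed signals of 10 podocyte markers were 14605 to 18513 in podocyte arrays and at most 4652 elsewhere. Those of 10 endothelial markers were 16023 to 18715 in endothelial arrays and at most 8139 elsewhere. Those of 10 mesangial markers were 8337 to 10838 in mesangial arrays, 1756 to 5347 in podocyte arrays and at most 900 in endothelial arrays. Some single markers departed from this. Endothelial *Plvap* was 82.0, 104 and 103 in wild type endothelial and 278, 300 and 208 in control mesangial arrays. Mesangial *Ren1* and *Tagln* were highest in mutant podocyte array A, at 789 and 900. Podocyte *Podxl* and *Clic5* reached 1250 and 1192 in endothelial arrays.

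Some arrays stood apart from their group. Control mesangial array C carried a summed podocyte marker signal of 4652 (1084 and 1251 in A and B), endothelial *Kdr* at 935 (77.6 and 81.1) and tubular *Kap* at 841 (38.2 and 51.7). Its summed signal of 4 erythroid genes was 7253 (584 and 296), and that of the mutant podocyte arrays was 5405, 720 and 232. Wild type podocyte arrays carried more endothelial marker signal, summed 4654 to 6133, than mutant podocyte arrays, with 2873, 1422 and 940 in A, B and C, and summed mesangial markers were 4352, 3760 and 3452 in the former and 5347, 4482 and 1756 in the latter. The median SD of the members' log2 signals was 0.171 among the mutant podocyte arrays and 0.0669 to 0.106 in the other groups. The part of these differences in the results below was not tested, except where a value without an array is given.

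Between wild type podocytes and mesangial cells, 11 of the 39 tested members passed an adjusted p of 0.05 (28.2%, against 27.9% of all transcript clusters tested), 3 higher (11% of all) and 8 lower (17%) in podocytes. Between wild type podocytes and endothelial cells, 19 of 39 passed (48.7%, against 38.8%), 6 higher (16.9% of all) and 13 lower (21.9%) in podocytes. Between wild type mesangial and endothelial cells, 14 of 39 passed (35.9%, against 32%), 6 higher (16.1% of all) and 8 lower (15.9%) in mesangial cells. In all, 24 members were called in at least 1 of these comparisons (61.5%, against 53.6% of all clusters), and the median member differed by -0.04, -0.11 and -0.06 on the log2 scale, against -0.03, -0.02 and -0.01 for all clusters tested. Without control mesangial array C the counts were 13, 19 and 13. Without mesangial array B or podocyte array C the first count was 7, and no share of all clusters is given for these fits. The counts with no array left out include calls in which 1 of the 2 groups was below the minimum signal in every array. Such calls rest on the other group having passed the filter. They were *Rab4a* and *Synj2* in the first comparison, *Dnm3*, *Rab4a*, *Itsn1*, *Bin1* and *Synj2* in the second and *Dnm3* and *Itsn1* in the third, which left 9, 14 and 12 calls (such calls made up 23.8%, 29.1% and 30% of all called clusters).

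Of the caveolar genes, *Cav1* was higher in endothelial cells than in both others, *Cav2* was lower in podocytes than in both others, and *Ehd2* was lower in endothelial cells than in both others. *Cav1* encodes the main structural protein of caveolae, and *Cav2* its partner, which depends on caveolin 1 to reach the membrane. *Cav1* signal was 661, 552 and 624 in wild type endothelial arrays, 116, 131 and 262 in mesangial ones and 189, 210 and 185 in podocyte ones. All endothelial arrays were above all others, and the highest mesangial value was that of array C. *Cav1* was thus 3.85-fold lower in mesangial than in endothelial cells (log2 difference -1.95, SE 0.26, adjusted p = 0.000351) and 3.14-fold lower in podocytes (-1.65, SE 0.26, adjusted p = 0.000783). Without mesangial array C the first difference was -2.31 (adjusted p = 6.03e-07).

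*Cav2* was lowest in podocytes. Its signal was 450, 525 and 522 in wild type endothelial arrays, 353, 381 and 367 in mesangial arrays and 163, 211 and 125 in podocyte arrays, and the 3 groups did not overlap. Podocytes were 2.25-fold below mesangial cells (-1.17, SE 0.17, adjusted p = 0.000684) and 3.06-fold below endothelial cells (-1.61, SE 0.17, adjusted p = 6.92e-05). The difference between mesangial and endothelial cells did not pass (-0.44, 95% interval -0.82 to -0.07, adjusted p = 0.0715). *Cav1* was 116 and 131 in mesangial arrays A and B, below every wild type podocyte array. In array C it was 262, above every wild type podocyte array. *Cav1* did not pass between podocytes and mesangial cells (0.29, SE 0.26, adjusted p = 0.422). *Cav2* in mesangial arrays A, B and C was 353, 381 and 367, above every podocyte array.

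The caveolin signal of podocyte arrays is given beside their marker signal of other cell types. Among the mutant podocyte arrays, *Cav1* was 287, 159 and 67.6 and *Cav2* 185, 114 and 51.4 in A, B and C, ranked as were the summed endothelial (2873, 1422 and 940), mesangial (5347, 4482 and 1756) and erythroid (5405, 720 and 232) genes. *Kdr* was 244, 75.4 and 65.2 in the same arrays, and array C had both caveolins below 100. Wild type podocyte arrays had *Kdr* at 535 to 664, and the part of RNA of other cell types in the caveolin signal was not tested. *Dnm3* was at 56.2, 49.0 and 47.6 in the same mutant podocyte arrays.

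**Figure D2:**
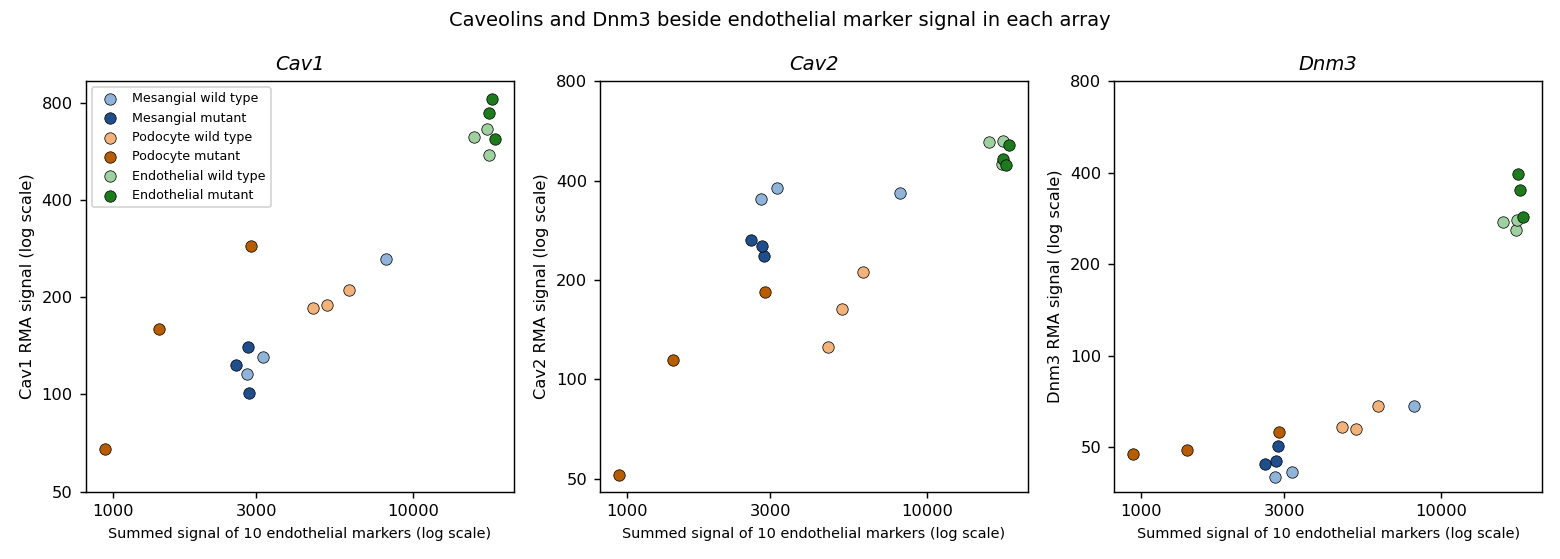
Each point is 1 array, coloured by cell type and genotype; the x axis is the summed signal of 10 endothelial marker genes and the y axis the RMA signal of *Cav1*, *Cav2* or *Dnm3*, both on log scales. The endothelial arrays lie at the upper right of each panel; the 3 mutant podocyte arrays fall from 287 to 67.6 for *Cav1* and from 185 to 51.4 for *Cav2* as the marker sum falls from 2873 to 940, and every mesangial array lies above every podocyte array for *Cav2*.

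*Ehd2* encodes an ATPase that sits at the neck of caveolae. It was lower, not higher, in the endothelial arrays, at 154, 99.8 and 111, against 184 to 224 in wild type podocytes and 163 to 193 in mesangial cells. Podocytes exceeded endothelial cells by 0.74 on the log2 scale (SE 0.16, adjusted p = 0.00504) and mesangial cells did so by 0.55 (SE 0.16, adjusted p = 0.0264). *Pacsin2*, a BAR domain protein of caveolae and of clathrin pits, did not pass in any wild type comparison, its largest difference being 0.22 between podocytes and mesangial cells (95% interval 0.00 to 0.44, adjusted p = 0.118).

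Of the dynamins, the GTPases that cut vesicle necks, *Dnm2* reached the minimum signal in all 18 arrays, *Dnm3* in endothelial arrays only and *Dnm1* in none. *Dnm3* was 260, 279 and 276 in wild type endothelial arrays, 57.2, 68.4 and 58.1 in podocyte arrays and 40, 41.5 and 68.3 in mesangial arrays. Only the endothelial arrays were above 100, and they did not overlap the other groups. *Dnm3* entered the test only through the endothelial arrays, and the other groups were below the minimum signal, so no difference is given. The ubiquitous *Dnm2* was higher in endothelial arrays, by 0.33 over podocytes (adjusted p = 0.0138) and 0.27 over mesangial cells (adjusted p = 0.0394). Its cluster also covers *Tmed1*, so the signal is shared. *Dnm1*, the neuronal dynamin, was at 62.0 to 92.3 over all 18 arrays.

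The 250 bases before the most upstream listed start are shown for *Dnm3*, *Cav1* and *Cav2*. *Cav1* was higher in endothelial cells and *Cav2* lower in podocytes than in both others, and *Dnm3* was above 100 in endothelial arrays only. The sequences are those of RefSeq on GRCm38.p6, written 5′ to 3′ on the gene's strand, and capitals mark every match, on either strand, to 4 motifs. The ETS core was searched as CCGGAA and the GC box was searched as GGGCGG. For the TATA box the letters were TATAAA, and those for the CCAAT box were the CCAAT of its name. *Dnm3* lies at chr1:162478035-162478284 (minus strand), *Cav1* at chr6:17306085-17306334 and *Cav2* at chr6:17280935-17281184 (both plus strand).
Dnm3: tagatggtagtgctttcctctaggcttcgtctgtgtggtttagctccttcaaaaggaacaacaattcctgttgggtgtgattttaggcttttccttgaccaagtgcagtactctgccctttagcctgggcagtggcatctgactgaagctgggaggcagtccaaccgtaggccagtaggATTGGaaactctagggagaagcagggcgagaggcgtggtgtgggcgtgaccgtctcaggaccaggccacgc
Cav1: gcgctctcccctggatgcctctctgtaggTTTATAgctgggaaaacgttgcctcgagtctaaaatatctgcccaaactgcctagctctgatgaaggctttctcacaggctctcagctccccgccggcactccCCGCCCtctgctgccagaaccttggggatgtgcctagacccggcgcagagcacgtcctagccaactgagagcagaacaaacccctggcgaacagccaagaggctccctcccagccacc
Cav2: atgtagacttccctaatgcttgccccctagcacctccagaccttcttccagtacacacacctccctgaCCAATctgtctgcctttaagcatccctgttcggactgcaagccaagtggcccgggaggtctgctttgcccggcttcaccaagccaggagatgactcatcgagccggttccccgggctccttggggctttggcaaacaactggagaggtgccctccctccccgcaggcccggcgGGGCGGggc
The *Dnm3* window held 1 CCAAT match, that of *Cav1* 1 GC box and 1 TATAAA match, and that of *Cav2* 1 GC box and 1 CCAAT match; none of the 3 held the ETS core. Over the 32851 RefSeq promoters of 300 bases, the ETS core was found in 12%, the GC box in 32.7%, TATAAA in 12.4% and CCAAT in 33.8%. Of the 48 promoters of members, 9 held the ETS core, 29 the GC box, 3 TATAAA and 20 CCAAT. *Cav1* and *Cav2* are neighbours on chromosome 6.

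Of the adaptors and scaffolds, *Picalm* was higher in mesangial cells than in both others. It encodes a clathrin assembly protein that binds membrane lipid and helps to set the size of the coated vesicle. Its signal was 1590, 1618 and 1399 in wild type mesangial arrays, 874, 829 and 825 in podocyte arrays and 924, 997 and 965 in endothelial arrays. Mesangial arrays were above all others, 1.82-fold over podocytes (podocyte minus mesangial -0.86, SE 0.09, adjusted p = 8.44e-05) and 1.59-fold over endothelial cells (0.67, SE 0.09, adjusted p = 0.00032). *Itsn1* and *Itsn2* encode intersectins, large scaffolds that bind dynamin and Eps15. *Itsn1* was 170, 242 and 147 in mesangial, 122, 116 and 116 in podocyte and 81.0, 61.6 and 78.5 in endothelial arrays, with no overlap between the groups. Every endothelial array was below the minimum signal, so no difference from endothelial cells is given. The step between mesangial cells and podocytes (-0.62, SE 0.18, adjusted p = 0.0259) was lost without a minimum signal (adjusted p = 0.0527), without mesangial array B and without any 1 podocyte array, with adjusted p up to 0.0755. *Itsn2* was 626, 634 and 623 in endothelial, 400, 398 and 448 in mesangial and 336, 405 and 370 in podocyte arrays. Endothelial arrays were above all others, by 1.70-fold over podocytes (-0.77, SE 0.09, adjusted p = 0.000191) and 1.51-fold over mesangial cells (-0.60, SE 0.09, adjusted p = 0.00108).

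*Picalm*, higher in mesangial cells than in both others, is shown in the same way, with capitals as above. So is *Itsn1*, whose wild type mesangial arrays were above all other wild type arrays. Both lie on the plus strand, at chr7:90129963-90130212 and chr16:91729121-91729370 of GRCm38.p6.
Picalm: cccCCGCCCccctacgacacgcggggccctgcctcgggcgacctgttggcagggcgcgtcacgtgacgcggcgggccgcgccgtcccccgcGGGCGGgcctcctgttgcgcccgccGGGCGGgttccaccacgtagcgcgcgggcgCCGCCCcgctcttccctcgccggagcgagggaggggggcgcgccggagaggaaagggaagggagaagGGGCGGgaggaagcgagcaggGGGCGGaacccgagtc
Itsn1: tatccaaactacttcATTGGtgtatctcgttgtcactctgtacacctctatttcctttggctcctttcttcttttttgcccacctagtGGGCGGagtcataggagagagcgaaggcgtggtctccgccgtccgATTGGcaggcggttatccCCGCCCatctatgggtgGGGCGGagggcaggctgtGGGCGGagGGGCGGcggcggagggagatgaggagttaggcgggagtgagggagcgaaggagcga
The *Picalm* window held 6 GC boxes and no other match, and 79.2% of its bases were G or C. That of *Itsn1* held 5 GC boxes and 2 CCAAT matches at 59.2% G or C. Of the 43 members, 37 had a listed promoter, and the median GC content of their 48 promoters was 59.8%, against 52.4% for all promoters.

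**Figure D3:**
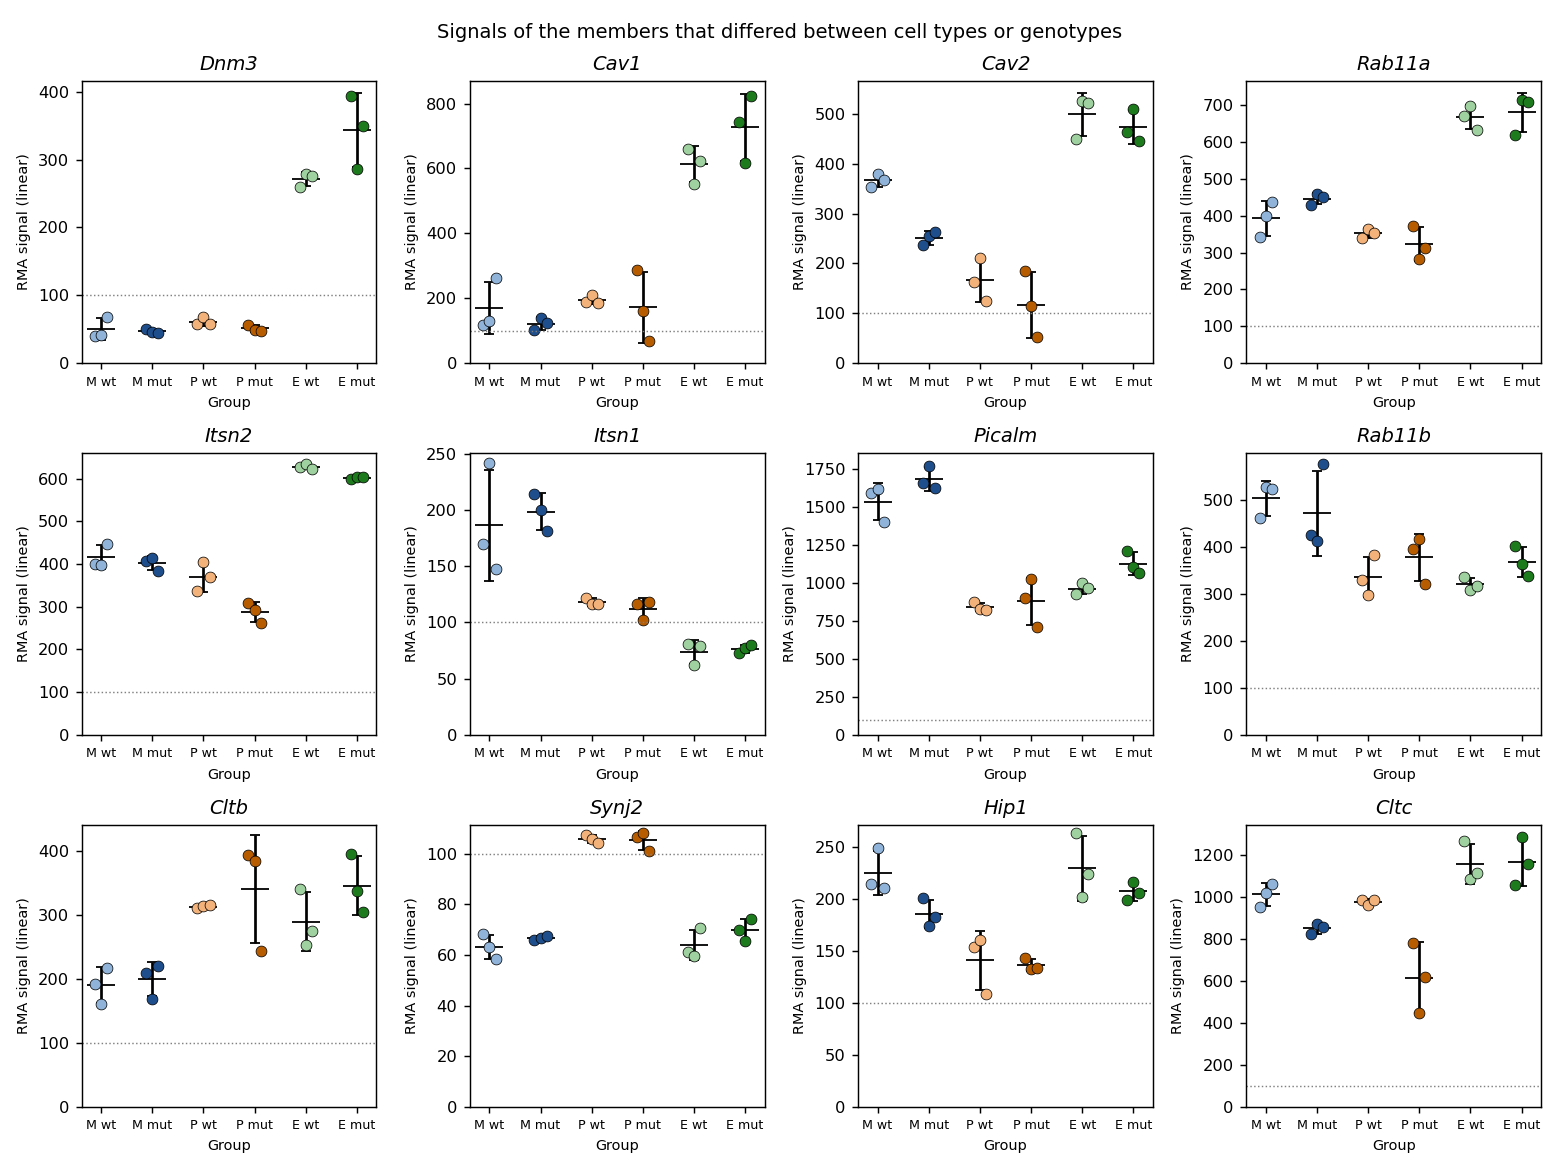
Each panel is 1 gene that the text describes array by array; points are the RMA signals of arrays A, B and C in mesangial (M), podocyte (P) and endothelial (E) cells of wild type (wt) and mutant (mut) mice, bars are the mean and SD of 3 arrays, and the dotted line is the minimum signal of 100. *Dnm3* is above 100 in endothelial arrays only, *Synj2* in podocyte arrays only, and *Itsn1* steps down from mesangial to podocyte to endothelial arrays.

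Of the other adaptors and scaffolds, *Eps15*, *Dab2*, *Hip1* and *Epn2* were called in at least 1 wild type comparison and *Epn1* in none. *Eps15*, a scaffold that binds AP2, was lowest in endothelial cells, with podocytes 0.37 (adjusted p = 0.00819) and mesangial cells 0.58 (adjusted p = 0.000798) above them. *Dab2*, an adaptor for LDL receptor family members, was 499, 499 and 685 in mesangial arrays, 752, 750 and 798 in podocyte arrays and 790, 847 and 803 in endothelial arrays. Mesangial arrays were below all others, with podocytes 0.47 (adjusted p = 0.0208) and endothelial cells 0.55 (adjusted p = 0.00797) above them; the highest mesangial value was that of array C. *Hip1*, which links clathrin to actin, was lowest in podocytes, at 154, 160 and 108, against 215, 249 and 211 in mesangial and 264, 202 and 224 in endothelial arrays. The podocyte arrays did not overlap either group, and they were 1.62-fold below mesangial cells (-0.69, SE 0.16, adjusted p = 0.0117) and 1.65-fold below endothelial cells (-0.72, SE 0.16, adjusted p = 0.00649). *Epn2*, an epsin that bends the membrane, was likewise lower in podocytes, by 0.30 (adjusted p = 0.0163) and 0.47 (adjusted p = 0.00107), while *Epn1* did not pass in any of the 3 comparisons. The podocyte to mesangial calls of both *Dab2* and *Epn2* were lost in the fit of all 18 arrays, without mesangial array A or B and without podocyte array C, that of *Dab2* also with the mean over a gene's clusters and that of *Epn2* without podocyte array B.

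Of the coat genes, both light chains were called in a wild type comparison and the heavy chain in none. *Cltc*, the clathrin heavy chain, was at 953 to 1063 in mesangial, 961 to 983 in podocyte and 1086 to 1265 in endothelial wild type arrays, and no comparison passed, the largest difference being -0.24 for podocytes minus endothelial cells (95% interval -0.44 to -0.04, adjusted p = 0.0586). The light chains regulate the heavy chain. *Clta* was 0.30 lower in podocytes than in endothelial cells (adjusted p = 0.0329), a size near that of *Cltc*. In mutants both were called there, *Clta* at -0.52 (adjusted p = 0.0113) and *Cltc* at -0.96 (adjusted p = 0.00237). *Cltb* was 192, 161 and 217 in mesangial arrays, 310, 313 and 315 in podocyte arrays and 340, 252 and 274 in endothelial arrays. Mesangial arrays were below all others, 1.66-fold below podocytes (podocyte minus mesangial 0.73, SE 0.14, adjusted p = 0.00348) and 1.52-fold below endothelial cells (-0.60, SE 0.14, adjusted p = 0.00803).

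Of the 5 genes of the AP2 complex, *Ap2a1*, *Ap2a2* and *Ap2b1* passed in no wild type comparison. *Ap2m1*, whose product reads the tyrosine sorting signal of cargo, was 0.47 higher in podocytes than in endothelial cells (adjusted p = 0.0204), and *Ap2s1*, the small subunit, was 0.46 lower in podocytes than in mesangial cells (adjusted p = 0.0175), a call that was lost without mesangial array B and without podocyte array C. *Necap1*, an AP2 binding protein, did not pass. *Arf6*, a GTPase that recruits AP2 and the kinase for its lipid anchor, was 0.59 higher in podocytes (adjusted p = 0.00113) and 0.50 higher in mesangial cells (adjusted p = 0.00381) than in endothelial cells. Of the genes for BAR domain proteins, *Bin1* was at 139, 117 and 109 in endothelial, 85.2 to 89.3 in podocyte and 84.3, 101 and 93.3 in mesangial arrays. The endothelial arrays were above all others, but the podocyte arrays and mesangial arrays A and C were below the minimum signal, so no difference is given. *Sh3gl1* and *Snx9* did not pass.

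*Synj2* was the member that the naming rule gave as highest in podocytes. It encodes a synaptojanin, a lipid phosphatase that strips the coat, and gave 108, 106 and 104 in wild type podocytes, 68.2, 63.1 and 58.6 in mesangial cells and 61.1, 59.7 and 70.7 in endothelial cells. The podocyte arrays did not overlap either group. *Synj2* entered the test only through them, and they lay just above the minimum signal while the others lay below it, so no difference is given. *Synj1*, its better studied relative, did not pass in any wild type comparison, where it was at 182 to 252; in mutants it was lower than in endothelial cells in podocytes (-0.43, adjusted p = 0.00731) and in mesangial cells (-0.62, adjusted p = 0.00143).

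Among the early endosome genes, *Eea1* and *Rabep1* passed between wild type podocytes and endothelial cells. *Rab5a*, *Rab5b* and *Rab5c* encode the GTPases that define the compartment. *Rab5a* and *Rab5c* passed in no wild type comparison and differed by at most 0.13, with 95% intervals between -0.31 and 0.43 for *Rab5a*; *Rab5b* was 0.65 higher in podocytes (adjusted p = 0.0564) and 0.60 higher in mesangial cells (adjusted p = 0.0852) than in endothelial cells, with 1 endothelial array at 171 and the others at 362 and 327. A second *Rab5b* cluster passed in both comparisons, at 0.64 (adjusted p = 0.043) and 0.66 (adjusted p = 0.0426). *Eea1*, the tether that Rab5 recruits, was 0.29 lower in podocytes than in endothelial cells (adjusted p = 0.0332), and *Rabep1*, which couples Rab5 to its activator, 0.28 lower (adjusted p = 0.0182).

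Of the recycling Rabs, *Rab11a* was 670, 699 and 633 in wild type endothelial arrays, 343, 398 and 438 in mesangial arrays and 339, 363 and 355 in podocyte arrays. Endothelial arrays were above all others, 1.89-fold over podocytes (-0.92, SE 0.10, adjusted p = 0.000105) and 1.71-fold over mesangial cells (-0.77, SE 0.10, adjusted p = 0.000374). Its paralogue *Rab11b* was highest in mesangial cells, at 460, 527 and 523, against 330, 297 and 381 in podocytes and 334, 308 and 316 in endothelial cells. Mesangial cells were 1.5-fold over podocytes (podocyte minus mesangial -0.59, SE 0.11, adjusted p = 0.00325) and 1.57-fold over endothelial cells (0.65, SE 0.11, adjusted p = 0.0015). This order is uncertain, since 0 of the 12 placed neighbours of that cluster in the table carry genes of the chromosome of *Rab11b*, and a second *Rab11b* cluster, with 13 of 14 such neighbours, gave -0.02 (adjusted p = 0.92) and 0.56 (adjusted p = 0.00261) for the same comparisons. The cluster used for *Rab5b* has the same fault (0 of 16), and its second cluster, with 14 of 15 such neighbours and nearly the same signal in every array, is the one called above. *Rab4a*, of the fast recycling route, was at 92.5, 89.9 and 80.1 in podocyte, 134, 137 and 143 in mesangial and 126, 127 and 121 in endothelial arrays. The podocyte arrays were below all others and below the minimum signal, so no difference is given. *Rab4b* and *Ehd1* did not pass.

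The cell type differences were then read in the mutant arrays, which the wild type comparisons did not use. Of the 11 members called between wild type podocytes and mesangial cells, 9 were called in the same direction in the mutants (81.8%, against 62.5% of all clusters called in wild type), where 17 of 39 members were called (29% of all clusters tested). Of the 19 called between podocytes and endothelial cells, 16 were called again (84.2%, against 70%), among 21 of 39 (47.1% of all). Of the 14 called between mesangial and endothelial cells, 12 were called again (85.7%, against 49.9%), among 15 of 39 (22.8% of all clusters). The members called again were 52.9%, 76.2% and 80% of those called in mutants. *Rab11b* and *Dab2* dropped out of the first, *Ap2m1*, *Rab4a* and *Eps15* out of the second, and *Rab11b* and *Ehd2* out of the third. Other members were called in mutants only. They were *Rab11a*, *Rabep1*, *Eea1*, *Ehd2*, *Eps15*, *Itsn2*, *Pacsin2* and *Snx9* in the first comparison. In the second they were *Cltc*, *Ap2a2*, *Synj1*, *Pacsin2* and *Snx9*, and in the third *Ap2a2*, *Eea1* and *Synj1*. The mutant counts include calls in which 1 of the 2 groups was below the minimum signal in every array. They were *Synj2* in the first comparison, *Dnm3*, *Itsn1*, *Bin1* and *Synj2* in the second and *Dnm3*, *Itsn1* and *Bin1* in the third. All were among the members called again, so the shares called again rest partly on them. The shares of all clusters include such calls too, and no share called again is given without them. Leaving these members out, 16, 17 and 12 mutant calls were left. Such calls made up 26.6%, 32.2% and 40.9% of all called clusters. With 1 mutant array left out, the mutant counts ran from 10 to 18, 19 to 24 and 8 to 19; the first was 10, 10 and 11 without mesangial array A, B and C, and the third was 10 and 9 without endothelial array A and B and 9 and 8 without mesangial array A and B. No share of all clusters is given for the fits with 1 array left out. *Dnm3* was 395, 286 and 350 in mutant endothelial arrays and at most 56.2 in the other mutant arrays. *Cav1* in mutants was 742, 617 and 823 in endothelial and 101, 140 and 123 in mesangial arrays (-2.58, SE 0.42, adjusted p = 0.00128). *Synj2* in mutant podocytes was 107, 108 and 101, again the only group above 100.

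**Figure D4:**
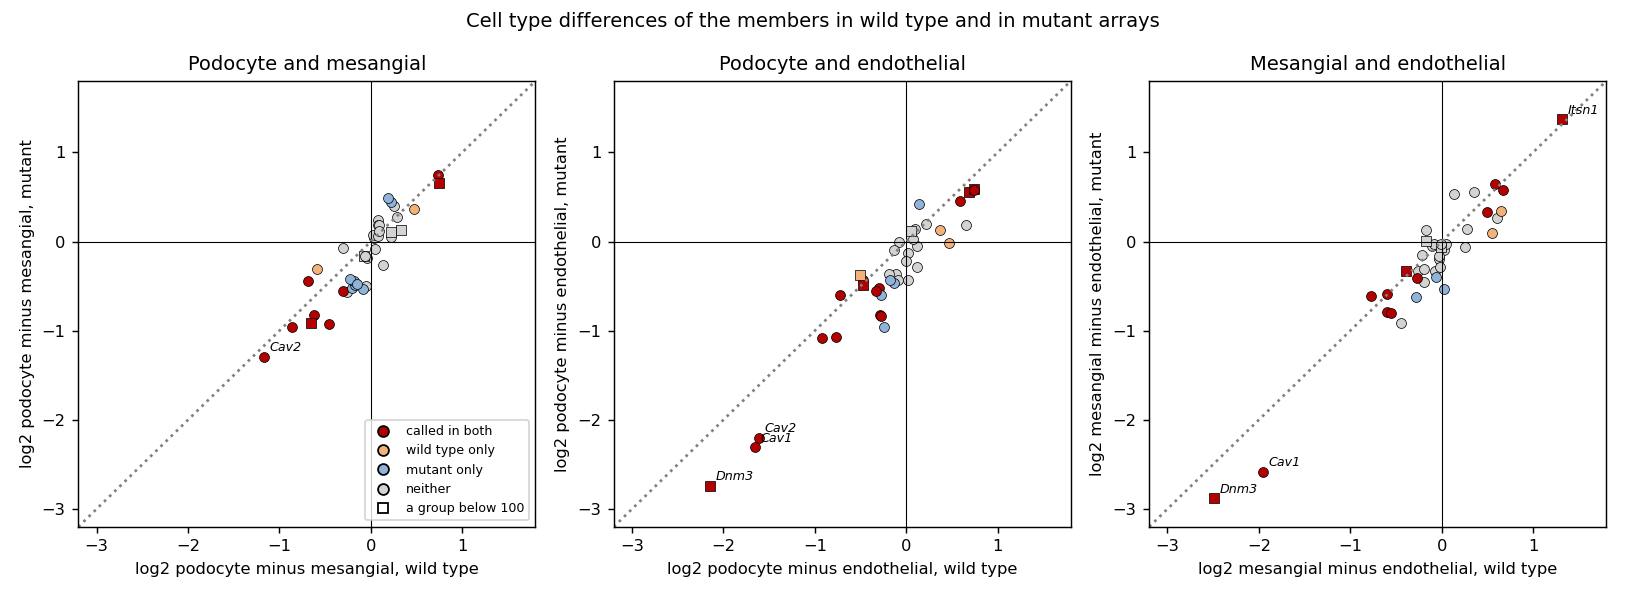
Each point is 1 of the 39 tested genes, with the log2 difference between 2 cell types in wild type arrays on the x axis and in mutant arrays on the y axis; colour shows where the adjusted p was under 0.05, the dotted line is equality, and genes with a wild type difference over 0.95 are named. Squares are genes with a group below 100 in every array in either genotype, *Dnm3* among them, whose distance from 0 is not read as a difference; *Cav1* is far below 0 against endothelial cells in both genotypes.

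For the genotype, the question was whether loss of *Cd2ap* altered transcripts of the endocytic machinery in each cell type. In mesangial cells 1 of 37 tested members passed (2.7%, against 2.92% of all clusters tested), and 0 passed the study's screen of an unadjusted p under 0.05 with a fold over 1.5 (5.19% of all clusters). *Cav2* was 353, 381 and 367 in control and 237, 254 and 264 in mutant mesangial arrays. The groups did not overlap, and the mutant level fell by 0.55 on the log2 scale (SE 0.08, adjusted p = 0.0289). That call was lost when any 1 of the 6 arrays was left out, the difference then being -0.58 to -0.50 with adjusted p from 0.0507 to 0.114. *Cav1* in the same arrays was 116, 131 and 262 against 101, 140 and 123, overlapping (-0.40, SE 0.31, adjusted p = 0.501).

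Over all tested members in mesangial cells, the median difference was -0.03, against -0.02 for all clusters, and 16 of the 37 were positive. Arrays of the genotypes did not overlap for 10 members (27%, against 28.6% of all clusters), 4 higher (12.3% of all) and 6 lower (16.3%) in mutants, and 6 members had an unadjusted p under 0.05 (21.7% of all clusters). For 30 members (81.1%, against 72.1%) the 95% interval of the difference lay within 1.5-fold either way. Among the largest were *Dab2* (-0.43, adjusted p = 0.153), *Ap2a2* (-0.32, adjusted p = 0.224), *Epn2* (0.32, adjusted p = 0.139) and *Ap2s1* (0.31, adjusted p = 0.281).

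In podocytes, the cell in which *Cd2ap* acts at the slit, 0 of 37 tested members passed by limma (0.0578% of all clusters), 5 had an unadjusted p under 0.05 (14.3% of all clusters), and the lowest adjusted p was 0.208, for *Rabep1*. The study's screen took 1 member (5.61% of all clusters), *Cltc*. The clathrin heavy chain was 983, 961 and 983 in wild type and 781, 447 and 616 in mutant podocyte arrays. The genotypes did not overlap, and the log2 difference was -0.70 (SE 0.20, adjusted p = 0.213). It passed without mutant array A (-0.89, adjusted p = 0.0468), was -0.49 without mutant array B (adjusted p = 0.305), and was called in a fit of all 18 arrays (adjusted p = 0.011), where the spread is shared with the other cell types.

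*Rabep1* in podocytes was 276, 267 and 255 against 213, 188 and 152 (-0.54, SE 0.15), without overlap. *Dab2* was 752, 750 and 798 against 671, 386 and 583 (-0.53, SE 0.21, adjusted p = 0.32), and *Itsn2* was 0.36 lower (adjusted p = 0.292). *Pacsin2* was 308, 289 and 317 against 353, 390 and 402 (0.33, SE 0.12, adjusted p = 0.296). It was the only tested non-overlapping member that was higher. In all, 8 tested members did not overlap (21.6%, against 21.3% of all clusters), 7 lower (14.3% of all) and 1 higher (6.97%). The median difference was -0.08, against -0.04 for all clusters, and 26 members (70.3%, against 53.9%) had a 95% interval within 1.5-fold. The synaptojanin differences were *Synj1* at -0.07 (95% interval -0.35 to 0.22) and *Synj2* at -0.01 (-0.27 to 0.25), and *Dnm2* was at -0.15 (-0.42 to 0.11).

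In endothelial cells 0 of 36 tested members passed by limma (1.29% of all clusters) and 0 by the screen (3.82%), with 4 at an unadjusted p under 0.05 (18.5%) and a lowest adjusted p of 0.195, for *Eea1*. *Eea1* was 341, 336 and 337 in wild type and 429, 406 and 379 in mutant arrays, without overlap (0.26, SE 0.09). *Dnm3* was 260, 279 and 276 against 395, 286 and 350, again without overlap (0.33, SE 0.13, adjusted p = 0.235), and *Snx9*, a sorting nexin that assists dynamin, differed by 0.34 (adjusted p = 0.199), at 351, 304 and 277 in mutant arrays. The summed leukocyte markers were 723, 557 and 435 in mutant and 431 to 486 in wild type endothelial arrays, ranked in mutants as were *Eea1* and *Snx9*, and their part was not tested. Arrays did not overlap for 8 tested members (22.2%, against 25.1%), 6 higher (17.7% of all) and 2 lower (7.34%). The median was 0.08, against 0.07 for all clusters, and 28 of 36 members were positive. For 30 members (83.3%, against 79.3%) the 95% interval lay within 1.5-fold, and *Cav1* (0.24, -0.06 to 0.54) and *Cav2* (-0.07, -0.31 to 0.16) did not pass.

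**Figure D5:**
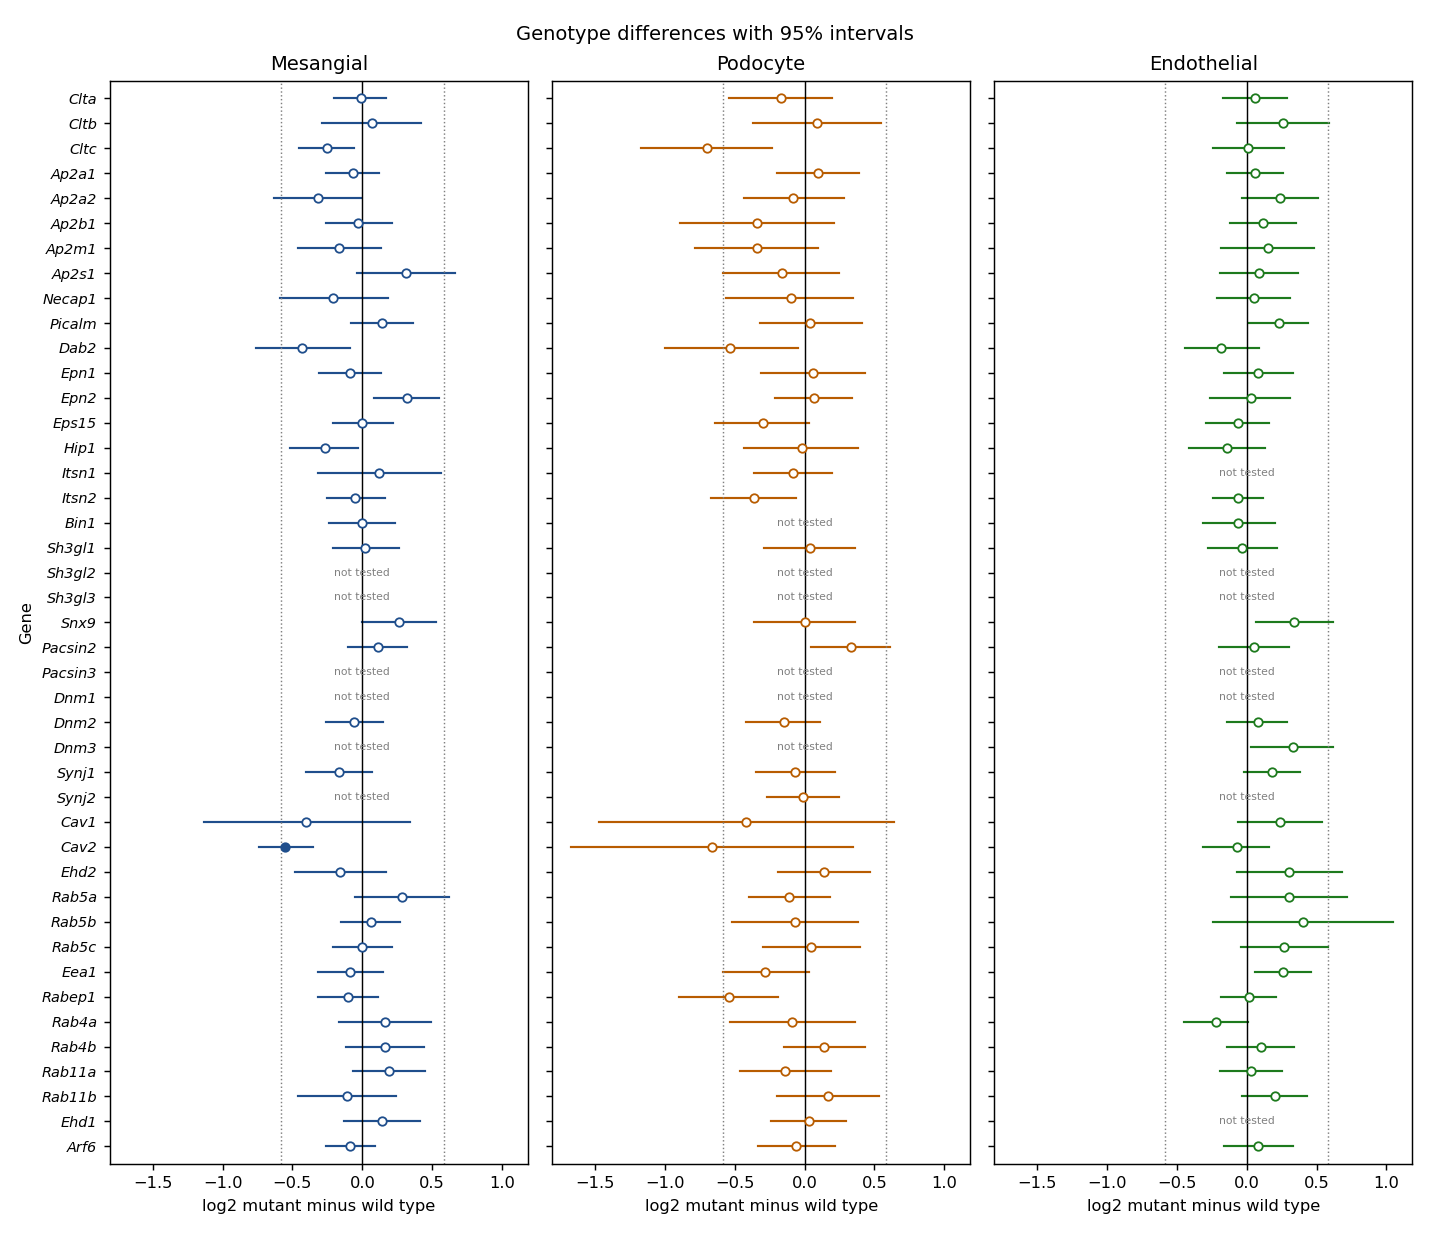
Points are the log2 differences, mutant minus wild type, of the tested genes in mesangial cells, podocytes and endothelial cells, with unadjusted 95% intervals; filled points have an adjusted p under 0.05 and dotted lines mark 1.5-fold either way. *Cav2* in mesangial cells is the only filled point, and the widest interval is that of *Cav1* in podocytes, 2.11 from end to end.

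Whether the genotype difference itself differed between cell types was tested by interaction contrasts over all 18 arrays. For podocytes against mesangial cells 0 of 39 members passed by limma (0.717% of all clusters) and 3 had an unadjusted p under 0.05 (12% of all clusters). For podocytes against endothelial cells 0 passed (2.11%) and 5 had an unadjusted p under 0.05 (23.4%), led by *Eea1* (-0.53, SE 0.14, adjusted p = 0.0573), *Rabep1* (-0.56, SE 0.15, adjusted p = 0.0627) and *Cltc* (-0.72, SE 0.21, adjusted p = 0.075). Without mutant podocyte array A, 4 members passed there, *Cltc*, *Ap2m1*, *Rabep1* and *Eea1*, and no share of all clusters is given for that fit. For mesangial against endothelial cells 0 passed (1.07%) and 3 had an unadjusted p under 0.05 (15.9%). The mesangial *Cav2* difference was not shown to be particular to that cell type, the contrasts being -0.12 for podocyte minus mesangial (adjusted p = 0.954) and -0.47 for mesangial minus endothelial (adjusted p = 0.608).

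A further 91 genes of endocytosis, cargo receptors, caveolae and endosomal sorting were read in the same fits, and all 91 were found. In mesangial cells 2 of 70 tested passed (2.86%, against 2.92% of all clusters), both lower in mutants and both EH domain ATPases of the family of *Ehd1* and *Ehd2*. *Ehd3*, which acts in endosome to Golgi and recycling transport and is also a marker of glomerular endothelium, was 618, 517 and 581 in control and 301, 262 and 310 in mutant arrays (-0.98, SE 0.11, adjusted p = 0.0121). *Ehd4* was 358, 392 and 298 against 168, 196 and 169 (-0.97, adjusted p = 0.0191). Neither gene overlapped between genotypes, while *Ehd2* was at -0.16 (adjusted p = 0.549) and *Ehd1* at 0.14 (adjusted p = 0.523). *Ehd3* lost its call without mutant array B (adjusted p = 0.0512) and in the fit of all 18 arrays (adjusted p = 0.154), and *Ehd4* lost its call in 5 of the 6 fits that left out 1 array, all but that without control array C (adjusted p up to 0.0731). The summed endothelial markers, which include *Ehd3*, were 2795, 3169 and 8139 in control and 2847, 2815 and 2577 in mutant mesangial arrays. In podocytes 0 of 75 and in endothelial cells 0 of 69 tested genes of this longer list passed by limma, with 19 and 15 at an unadjusted p under 0.05 (14.3% and 18.5% of all clusters). The study's screen took 4 of the tested genes in mesangial cells (5.71%, against 5.19% of all clusters), 10 in podocytes (13.3%, against 5.61%) and 1 in endothelial cells (1.45%, against 3.82%). Arrays of the genotypes did not overlap for 25 (35.7%, against 28.6%), 27 (36%, against 21.3%) and 21 (30.4%, against 25.1%).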

How the data were processed

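Gene expression was measured on Affymetrix Mouse Gene 1.0 ST arrays in 18 samples, 3 in each of 6 groups, from RNA that was amplified by Ribo-SPIA after sorting. The authors deposited intensity values on a linear scale, the RMA signals of the Expression Console per transcript cluster, in a table that names mm9 and the na32 annotation in its header. The authors also deposited log2 values with each row's median subtracted, in 18 further columns that were not used here. The series record names exon arrays and GeneBASE instead, and the table header was followed. Column numbers could be matched to a group but not to a sample, and array medians ranged from 62.8 to 71.6. RNA-seq was not analysed here.

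The log2 of each signal was fitted with limma (version 3.58.1, R 4.3.3) by lmFit and eBayes, leaving out clusters that stayed under 100 in every array compared. Genotype was tested within each cell type (6 arrays), cell types within each genotype (9 arrays), and interactions over 18 arrays, 12 comparisons in all. A call is a Benjamini-Hochberg adjusted p under 0.05 over all clusters tested, and the screen of the study's methods (unadjusted p under 0.05, fold over 1.5) stands beside it. No pair of arrays held identical values. P-values set a difference against the spread between these samples, and the number of arrays limits precision. In each fit 1 spread per gene is shared by all groups, although the members' median SD was highest in the mutant podocyte arrays. The members, gene lists, tests and marker lists were chosen with earlier results of these data known. Array values are given for members called in a genotype comparison, taken by the screen, called in an interaction, or called with a fold over 1.5 against both other cell types in wild type arrays; others were chosen after their values were seen. Genes of the longer list are named where a genotype comparison or an interaction called them. Alternatives were other filters, empirical Bayes with trend, subtraction of array medians, other choices of cluster, 1 fit of all arrays, and leaving out each array. The test was checked on simulated data. Promoters are from RefSeq (GRCm38.p6), used for sequence and names only, and figures were drawn with matplotlib 3.10.9. Some items are not reported here.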

Additional observations from a re-analysis of the deposited data

Results flagged for a closer look

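No member differed between cell types in its genotype effect at an adjusted p under 0.05. Of the longer list of 91 genes, 77 were tested and 4 did, in interaction contrasts of limma over all 18 arrays: 1 of 77 for podocytes minus mesangial cells (1.3%, against 0.717% of all clusters), 4 for podocytes minus endothelial cells (5.19%, against 2.11%) and 1 for mesangial minus endothelial cells (1.3%, against 1.07%). *Ehd4*, an EH domain ATPase of endosomes, fell in mutant mesangial cells (358, 392 and 298 to 168, 196 and 169). It was 259, 218 and 208 in wild type and 486, 293 and 407 in mutant endothelial arrays. Its genotype effect in mesangial cells minus that in endothelial cells was -1.74 (adjusted p = 0.00752). For podocytes minus endothelial cells the *Ehd4* contrast was -1.35 (adjusted p = 0.0309). *Rab31*, a GTPase of endosome to Golgi transport, was 188, 170 and 138 in wild type and 98.1, 118 and 84.8 in mutant podocyte arrays. Its genotype effect in podocytes differed by -0.88 from that in mesangial cells (adjusted p = 0.0331). It differed by -0.90 from that in endothelial cells (adjusted p = 0.0237). The effect itself was 0.16 in mesangial and 0.18 in endothelial cells. Mutant podocyte arrays A and C were below the minimum signal for *Rab31*, which limits the size of both contrasts. *Aak1*, the kinase of the AP2 medium subunit, was 252, 210 and 247 against 147, 109 and 166 in podocytes. Its genotype effect there, -0.77, differed by -1.04 from that in endothelial cells, 0.27 (adjusted p = 0.0272). *Stam2*, an adaptor of ubiquitinated cargo, was 326, 305 and 244 against 216, 169 and 217 in podocytes. Its genotype effect there, -0.54, differed by -0.78 from that in endothelial cells, 0.24 (adjusted p = 0.0354). Apart from *Ehd4* between mesangial and endothelial cells, which kept its call in all 18 fits that left out 1 array (adjusted p at most 0.0301), these calls were lost in 3 to 10 of those fits.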

How the results depend on the processing

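No paired analysis was possible because the groups share no replicate numbers. No difference of a gene named by the rule reversed under the alternatives run; with array medians subtracted, the number of members above 0 went from 14 to 19 for wild type mesangial against endothelial cells, from 19 to 16 and, in mutants, from 17 to 13 for podocytes against mesangial cells, from 8 to 3 for the podocyte minus endothelial interaction and from 12 to 5 for the mesangial minus endothelial one, and by at most 4 in the other comparisons. The mesangial genotype count of 1 became 0 by the study's screen, in 1 fit of all 18 arrays (*Cav2* adjusted p = 0.358) and in all fits that left out 1 array (0 to 0). The podocyte count of 0 became 1 by the screen and 3 in the fit of all arrays (*Cltc*, *Rabep1* and *Itsn2*), and was 0 to 1 with 1 array left out; the endothelial count was 0 to 0. With a fold over 1.5 added, the counts were 10 for wild type podocytes against endothelial cells, 8 for wild type mesangial against endothelial cells, and 7, 11 and 9 for mutant podocytes against mesangial, podocytes against endothelial and mesangial against endothelial cells. Leaving out 1 array gave 7 to 13, 16 to 19 and 12 to 16 in wild type and 10 to 18, 19 to 24 and 8 to 19 in mutants, in the same order of comparisons. For podocytes minus endothelial cells, the interaction count of 0 became 2 without a minimum signal (*Eea1*, *Pacsin3*), 1 with a stricter one (*Eea1*), 3 with array medians subtracted (*Cltc*, *Rabep1*, *Eea1*) and 0 to 4 with 1 array left out; for podocytes minus mesangial cells it was 0 to 1, and for mesangial minus endothelial cells 0 to 0. For these counts, other than those of the study's screen, no share of all clusters is given. The cause was not tested. Array medians shifted the mutant podocyte minus endothelial differences of all clusters by -0.13, and the median member from -0.37 to -0.50. Taking the mean of a gene's clusters left *Rab11b* at -0.30 and 0.61. Of the values for single genes, 510 kept their side of the threshold, 50 lost it and 2 gained it. Low signals near array background limit *Dnm3*, *Synj2*, *Bin1*, in podocytes *Rab4a* and *Rab31* and, in endothelial cells, *Itsn1*.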
